A study of Homo sapiens with 2 samples.

Results

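Integrated stress response genes were examined for N6-methyladenosine (m6A) in messenger RNA. The 7 genes, ATF4, PPP1R15A, PPP1R15B, XBP1, DDIT4, SESN2 and TRIB3, were chosen by name, and a site belonged to a gene where the deposited lists carried that gene's name. All 7 had sites, out of 10321 named genes with a listed site in replicate 1 and 10879 in replicate 2. The samples were 2 replicates of wild-type HEK293T, a widely grown human cell line of embryonic kidney origin, labelled day 0, with no second genotype, treatment or time. In GLORI, glyoxal and nitrite turn unmethylated adenosine into inosine, which is read as G, while m6A is still read as A. The share of reads showing A at a position is therefore its methylation level. Whether the 2 replicates were grown as separate cultures is not stated, so their spread may be purely technical.

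In the integrated stress response, kinases that sense stress phosphorylate the translation factor eIF2, which lowers general protein synthesis while a few mRNAs with upstream open reading frames, ATF4 among them, are translated more. ATF4 is the transcription factor that then switches on genes of amino acid supply and stress relief. PPP1R15A, which is induced by stress, and PPP1R15B, which is made constitutively, direct protein phosphatase 1 to eIF2 and end the response. XBP1 encodes the transcription factor of the parallel unfolded protein response, DDIT4 and SESN2 encode inhibitors of the growth kinase mTORC1, and TRIB3 encodes a pseudokinase that restrains ATF4. The labels name no stress treatment of these cells.

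Both lists hold only sites with at least 15 reads, 5 reads showing A and a level of 10%, and an adenosine below any of these limits has no entry. The lists held 72449 and 81554 sites, with 5221660 reads at the sites of replicate 1 and 6306522 at those of replicate 2. The stress response genes had 97 sites in all. Both replicates listed 80 of them, 10 stood in replicate 1 alone and 7 in replicate 2 alone. The 80 shared sites were 88.9% of the genes' sites in replicate 1 and 91.95% of those in replicate 2. Over the whole lists the shared sites were 83.5% and 74.1%. The 17 unshared sites were all weak, with levels from 10.2% to 22.7% and 5 to 21 reads showing A. Median coverage of the genes' shared sites was 91.5 reads in replicate 1 and 102.5 in replicate 2, against 43 and 51 over shared sites of all named genes.

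Sequence around listed sites was at hand only near transcript starts, where it bears on a pair of genes. Of the genes in the series, 346 had a shared site at an annotated first nucleotide, while 9521 named genes had a shared site anywhere. ATF4 and PPP1R15B each had a site at the annotated first nucleotide of the transcript. The first lines below show the 10 bases before that nucleotide, the nucleotide itself as a capital A, and the 10 bases after it. The bases before it are genomic and lie outside the annotated transcript. TRIB3 is shown beside them, because 1 of its annotated starts is also an A and was not listed in either replicate. Most A starts had no shared site: RefSeq's table held 15520 of them, and 349 shared sites lay on an annotated first nucleotide. Depth at the TRIB3 start is unknown, since an unlisted position has no entry.

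ATF4 (chr22:39520549-39520569, plus strand): cggccacggcAgccatttcta

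PPP1R15B (chr1:204411807-204411827, minus strand): ccctgcggccAttttgggctt

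TRIB3 (chr20:381333-381353, plus strand): cggccaggtcAgatccctttt

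The sequences are RefSeq's on GRCh38.p14, which had an entry for all 7 genes. Every other start of the 7 genes with sequence at hand was a G or a C, and the outermost gene start of TRIB3 was not among them. In all 3 sequences a C stands before the A. At the starts of RefSeq's table that begin with A, 66.7% had a C before it. Of the 349 shared sites in the series that lay on an annotated first nucleotide, 258 (73.9%) had one. The nucleotide next to the cap of an mRNA can carry both a methyl group on its ribose and one on its base, a form called m6Am, and GLORI reads any adenosine with the base methyl group as A. The ATF4 start was methylated at 29.4% in replicate 1 (10 of 34 reads) and 34.5% in replicate 2 (20 of 58 reads). The PPP1R15B start had 18.2% (12 of 66 reads) and 24.1% (21 of 87 reads). Over the 349 first-nucleotide sites the median level was 29.2%, with quartiles at 19.6% and 42.8%, so both starts lay between the quartiles. For ATF4 the start was the most methylated of its shared sites, and its other 4 averaged 15.3%. For PPP1R15B it was among the weaker ones, against a mean of 48.98% over the other 31.

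The genes were compared next by the mean level of their sites. ATF4 stood lowest, with no shared site averaging above 31.9%, while each of the other 6 genes had at least 1 adenosine methylated above 94%. Mean levels over shared sites were 66.5% ± 1.5 for TRIB3 (8 sites), 61.2% ± 0.52 for XBP1 (7 sites), 61.1% ± 0.97 for SESN2 (10 sites), 48.3% ± 1.8 for PPP1R15A (7 sites), 48.1% ± 0.67 for PPP1R15B (32 sites), 43.5% ± 0.31 for DDIT4 (11 sites) and 18.6% ± 1.2 for ATF4 (5 sites). The errors are counting standard errors, since at shared sites the replicates differed by no more than read sampling and were counted as 1 sample. Sites under a listing limit in 1 replicate could not enter that comparison, so the spread between replicates may be understated. XBP1 and SESN2 differed by less than these errors, as did PPP1R15A and PPP1R15B. The order of the upper genes also rested on which sites were taken. With sites listed in either replicate, XBP1 had 50.8% (9 sites), TRIB3 48.3% (12 sites), PPP1R15A 48.3% (7 sites), SESN2 45.7% (15 sites), PPP1R15B 44.5% (36 sites), DDIT4 43.5% (11 sites) and ATF4 16.9% (7 sites). PPP1R15A was then level with TRIB3, and ATF4 was again the lowest.

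**Figure D1:**
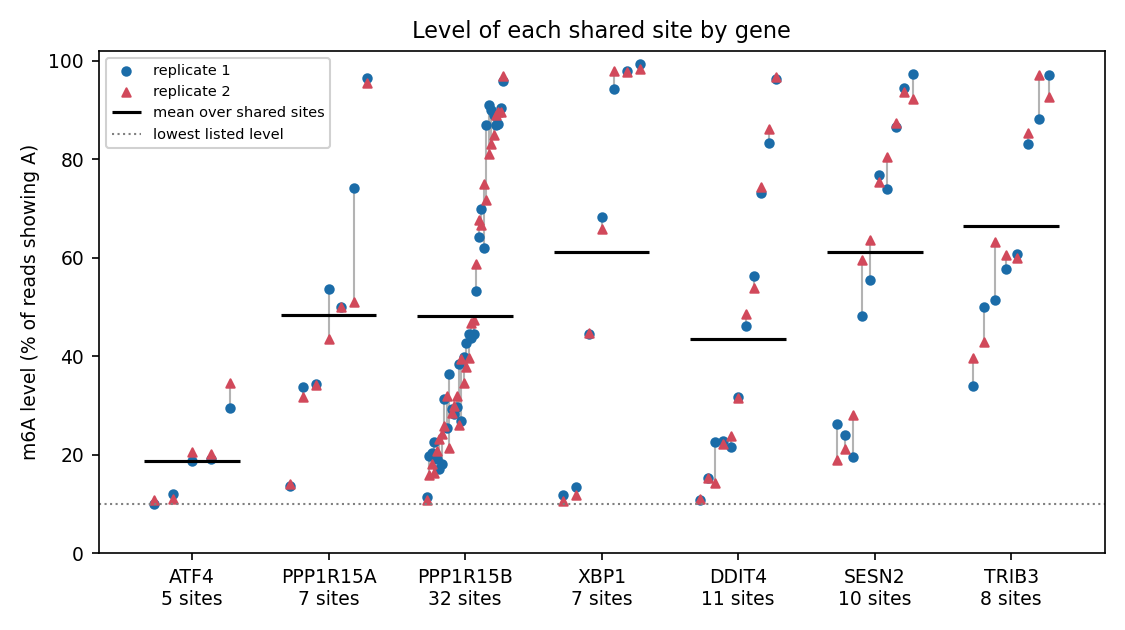
m6A level of every shared site, as percent of reads showing A, in replicate 1 (circles) and replicate 2 (triangles), with sites ordered by level within each gene, grey lines joining the replicates of a site and black bars at the gene means. The 5 sites of ATF4 lie between 10.03% and 34.5%, while each other gene has sites spread over 58.1 percentage points or more.

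ATF4 was among the deeply covered genes. The gene coverage that the authors deposited was 490 in replicate 1 and 550 in replicate 2. The most deeply read site, at position 39521934 of chromosome 22 (plus strand, GRCh38), had 306 of 1601 reads showing A in replicate 1 and 377 of 1867 in replicate 2, or 19.1% and 20.2%. Position 39521489 had nearly the same level, with 18.8% and 20.5%. Positions 39521790 and 39521815, 25 nt apart, had 12% and 11% (32 of 280 summed reads) and 10.03% and 10.7% (76 of 730 summed reads). The difference between these neighbours did not pass Fisher's exact test (adjusted p = 0.716). The step of 9.27 percentage points up to position 39521934, 119 nt further on, passed it (Fisher's exact test, adjusted p = 2.37e-09). Sites at 39522398 and 39522439 were listed in replicate 1 alone, each with 6 reads showing A. The authors' deposited conversion fraction for ATF4 was 98.06% in replicate 1 and 98.09% in replicate 2, so that 1.94% and 1.91% of adenosines were taken as unconverted. Over the other 6 genes this share ran from 2.75% to 4.15%, and all of these lie below the 10% limit for listing.

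Set against genes of like depth, ATF4 and XBP1 lay at opposite ends. The genes with a shared site were divided into 10 equal classes of deposited coverage, and the highest class (131 to 7764) held both, along with DDIT4. Mean levels fell with coverage over the series, from a median of 58.6% in the lowest class to 31.0% in the highest, so genes are best read within a class. In the highest class 275 genes had at least 5 shared sites, and their median of mean levels was 38.8%. Only 7 of them lay below ATF4, and 5 lay above XBP1. DDIT4, with a coverage of 1092 in replicate 1 and 1260 in replicate 2, had 177 below and 97 above it. TRIB3, in the 7th class, had 16 genes above it among 516, and SESN2, in the 8th, 31 above among 474. PPP1R15A and PPP1R15B, also in the 8th class, lay near its middle, with 180 and 183 genes above them. As the class is wide, XBP1 at a coverage of 125 and 144 was still less deeply read than ATF4.

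**Figure D2:**
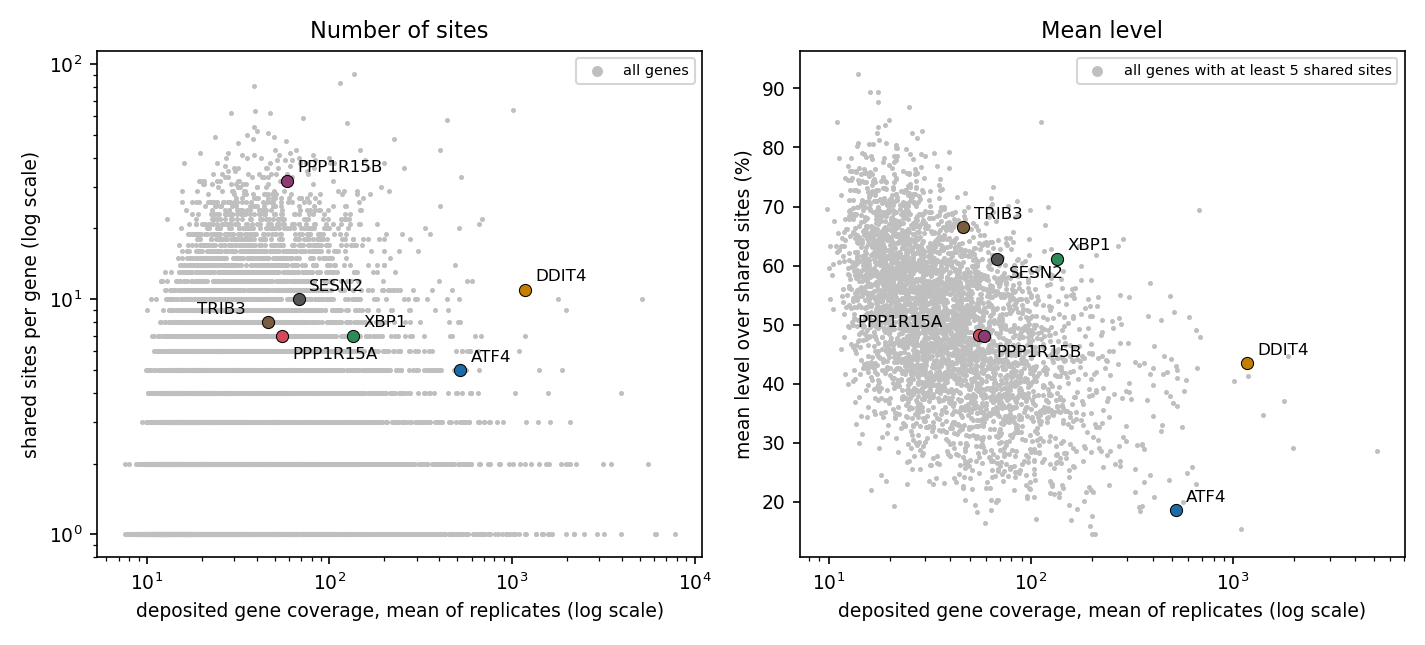
Number of shared sites (left, log scale) and mean level over shared sites in percent (right) against the deposited gene coverage (log scale, mean of the replicates), for the 7 stress response genes (large points, named) and all genes (grey; at right those with at least 5 shared sites). PPP1R15B, with 32 sites, lies near the top of its depth class at left, and ATF4, at 18.6%, near the lower edge at right.

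PPP1R15B, the constitutive phosphatase subunit, carried by far the most sites of the group. Replicate 1 listed 33, replicate 2 listed 35 and both listed 32. Of the 952 genes in its coverage class 14 had more shared sites, and of all 9521 genes 78 had more. The class had a median of 4. Its stress-induced counterpart PPP1R15A, at nearly the same deposited coverage (52.2 and 57.9, against 54.1 and 62.9 for PPP1R15B), had 7. The annotated genes span 15992 nt for PPP1R15B and 3638 nt for PPP1R15A. Counts of sites were not scaled for length, and transcript lengths were not at hand. Summing the levels of a gene's shared sites gives the mean number of listed m6A per transcript. This came to 15.4 for PPP1R15B, 6.11 for SESN2, 5.32 for TRIB3, 4.79 for DDIT4, 4.28 for XBP1, 3.38 for PPP1R15A and 0.931 for ATF4. The median was 4.79 for the 7 genes and 1.63 over all genes with a shared site. The highest coverage class, which held ATF4, XBP1 and DDIT4, had medians of 2 shared sites and 0.777 m6A per transcript. ATF4 lay above both, with 5 sites and 0.931, though its mean level was low for the class. The sums count the first-nucleotide sites, which may be m6Am. Without them ATF4 came to 0.611, under that class median, which keeps such sites, and PPP1R15B to 15.2. The sums leave out unlisted sites and treat the sites of a gene as lying on 1 transcript, which alternative transcripts can break.

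Most sites of PPP1R15B, which RefSeq places at chr1:204395826-204411817 on the minus strand, lay close to its start. Of the 32 shared sites 28 fell within the first 2173 nt of the gene, and the other 4 between 5677 and 6371 nt from the start. The last of them was still 9620 nt from the annotated gene end. Levels rose and fell sharply along this stretch. The highest, at position 204410726, had 95.9% in replicate 1 (142 of 148 reads) and 96.9% in replicate 2 (188 of 194 reads). Sites at 204406116, 204410140, 204411429, 204409976, 204409742 and 204409940 also had mean levels between 86% and 90%. The lowest, at 204411240, had 11.5% and 10.8% (22 of 192 and 23 of 213 reads), in the same stretch as the strong sites and at a greater depth than most of them. At 80% or more were 7 shared sites, under 20% were 5 and in between were 20. A further 1 site was listed in replicate 1 alone and 3 in replicate 2 alone.

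**Figure D3:**
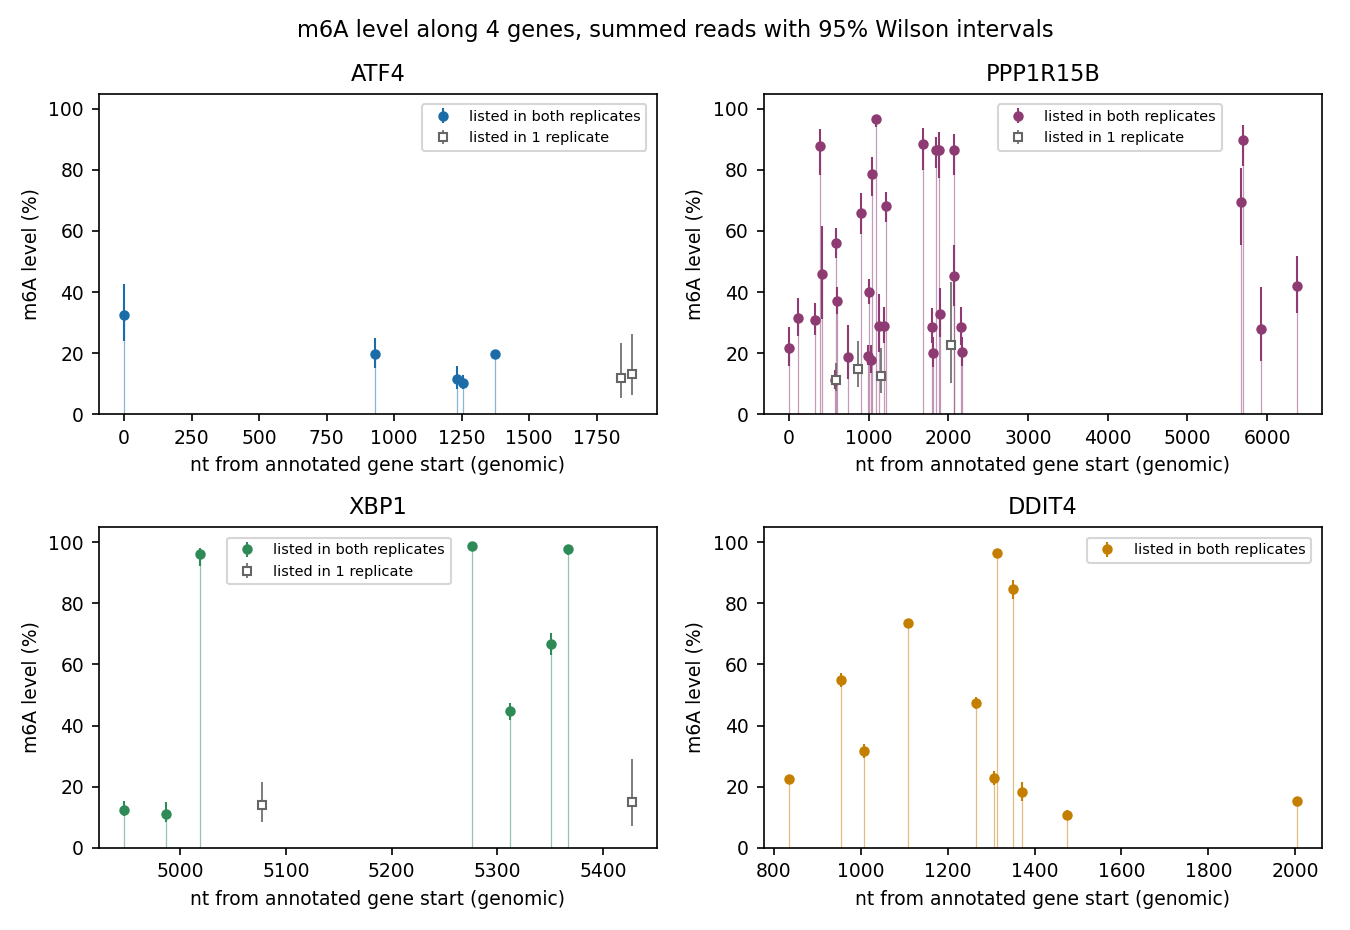
m6A level in percent (summed reads of the replicates, with 95% Wilson intervals) against the genomic distance in nt from the annotated gene start, for ATF4, PPP1R15B, XBP1 and DDIT4. Filled points were listed in both replicates and open squares in 1. Strong and weak sites lie close together in PPP1R15B, XBP1 and DDIT4, whereas no ATF4 site exceeds 32.6%.

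PPP1R15A, on the plus strand at chr19:48872421-48876058, had all 7 of its sites listed in both replicates. The strongest, at position 48873681, had 96.6% in replicate 1 (56 of 58 reads) and 95.5% in replicate 2 (64 of 67 reads). Upstream of it stood 3 weaker sites. Position 48873353 had 34.3% and 34.1%, position 48873429 had 53.7% and 43.5%, and position 48873560 had 74.1% and 50.9%. The step between the first 2 of these was not called (Fisher's exact test, adjusted p = 0.0677), and the next 2 steps, up to 48873681, were. Downstream, position 48874654 was the weakest, with 13.6% and 14% (6 of 44 and 7 of 50 reads). The drop of 82.2 percentage points between 48873681 and 48874654, which lie 973 nt apart, was the second largest step between neighbours in the 7 genes (Fisher's exact test, adjusted p = 4.73e-38). Position 48874726 had 50% in both, from 18 reads each, and position 48875951, 107 nt before the annotated gene end, had 33.8% and 31.6%.

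XBP1, on the minus strand at chr22:28794560-28800569, held adenosines that were almost always or seldom methylated. All its shared sites lay within 420 nt, between 642 and 1062 nt from the annotated gene end. Position 28795293 was the most methylated site of the whole group, with 329 of 331 reads showing A in replicate 1 (99.4%) and 399 of 406 in replicate 2 (98.3%). Position 28795202 had 97.8% in both (177 of 181 and 264 of 270 reads), and position 28795550 had 94.2% and 97.9%. Positions 28795218 and 28795257 were intermediate, with 68.3% and 65.7%, and 44.6% and 44.7%. Positions 28795582 and 28795622 were weak, with 11.8% and 10.6%, and 13.5% and 11.8%. The step of 84.8 percentage points between 28795582 and 28795550, only 32 nt apart, was the largest in the 7 genes (Fisher's exact test, adjusted p = 1.03e-88). A further 2 sites, at 13.9% and 15%, were listed in replicate 1 alone.

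DDIT4, on the plus strand at chr10:72273924-72276036, was the most deeply read and gave the most precise levels. All 11 of its sites were listed in both replicates. At position 72275034 the level was 73.1% from 2973 reads in replicate 1 and 74.3% from 3400 reads in replicate 2. Position 72275238 had 96.2% and 96.7% (479 of 498 and 584 of 604 reads). Only 8 nt upstream of it, position 72275230 had 21.5% and 23.8% (140 of 651 and 185 of 778 reads), a difference of 73.8 percentage points. A strong site at 72275274 (83.3% and 86.2%) was likewise followed, 21 nt later, by a weak one at 72275295 (22.6% and 14.3%). Positions 72275398 and 72275927 were weak, at 10.7% and 11.1%, and at 15.2% in both. The remaining 4 sites ran from a mean of 22.5% at 72274759 to 55.1% at 72274879, and every one of the gene's 10 steps between neighbours passed the test.

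SESN2, on the plus strand at chr1:28259518-28282491, had a weak site near the gene start and the others near its end. Position 28259888, 370 nt from the start, had 26.2% in replicate 1 (16 of 61 reads) and 18.9% in replicate 2 (14 of 74 reads). The other 9 shared sites lay in the last 10% of the gene. Among them positions 28280844 and 28280969 had 94.4% and 93.6%, and 97.3% and 92.2%. Position 28280985 followed with 86.5% and 87.3%, and 28281197 with 73.9% and 80.4%. Between the strong sites 28280969 and 28280985, position 28280981 was listed in replicate 1 alone at 10.98% (9 of 82 reads). The weakest shared site apart from 28259888 was 28281994, with 24.1% and 21.1%. In all 3 sites stood in replicate 1 alone and 2 in replicate 2 alone, among them 28259583, 65 nt from the gene start (12 of 68 reads in replicate 1).

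TRIB3, on the plus strand at chr20:380760-397559, had all 8 shared sites within 931 nt, between 227 and 1158 nt from the gene end. Position 396767 had 97.1% (67 of 69 reads) and 92.6% (75 of 81 reads), and position 396630 had 88.2% and 97.1% from 34 and 35 reads. Position 397083 had 83.0% and 85.3%. The lowest shared site, at 396726, had 33.96% and 39.6%, the highest minimum of the 7 genes. TRIB3 was also the least covered of them, at 43.03 in replicate 1 and 49.5 in replicate 2. Its unshared sites, 388136 and 391413 in replicate 2 and 396266 and 397463 in replicate 1, had levels from 10.2% to 13.95%.

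Levels within a gene were unequal in all 7 genes. A chi-square test of the reads across the shared sites of a gene called 7 of 7 after Benjamini-Hochberg adjustment over 7287 genes, the largest adjusted p being that of ATF4 (1.93e-11). Over all genes with at least 2 shared sites the same test called 89.6%, so that unequal levels were the rule in the series. The range from the weakest to the strongest shared site was 87.6 percentage points in XBP1, 85.5 in DDIT4, 85.3 in PPP1R15B, 82.2 in PPP1R15A, 72.2 in SESN2, 58.1 in TRIB3 and 21.6 in ATF4. Neighbouring sites were then compared with Fisher's exact test on summed reads, adjusted over 46585 pairs of the series. Of the 73 pairs in the 7 genes, 58 differed (79.5%), against 66.5% of all pairs, and the sites of the 7 genes were the more deeply read. Of 7 pairs at most 15 nt apart 6 differed, against 67.7% of all such pairs. The 15 pairs that were not called differed by up to 17.3 percentage points. Reads can cover both sites of a close pair, while the test treats the reads of the sites as independent, so its p-values describe these libraries.

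**Figure D4:**
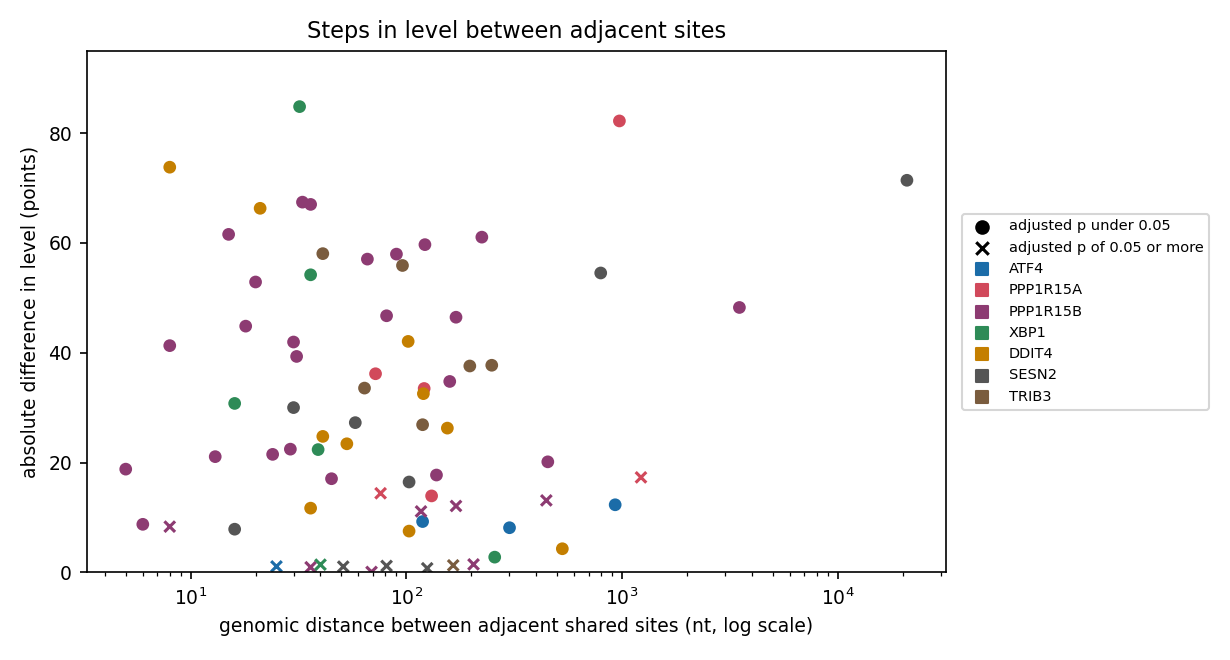
Absolute difference in level, in percentage points, between each pair of adjacent shared sites against their genomic distance in nt (log scale), coloured by gene. Circles passed Fisher's exact test after adjustment and crosses did not. Steps of more than 70 points occur at 8 nt in DDIT4 and at 32 nt in XBP1, while the largest of the 4 steps of ATF4 is 12.3 points.

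The replicates could not be told apart at any of the 80 shared sites, and sites listed in 1 replicate alone could not be tested. Fisher's exact test with Benjamini-Hochberg adjustment over 60462 shared sites called 0 of the 80 (adjusted p = 1 at each), against 0% of all sites. A chi-square test also called 0. Unadjusted p-values under 0.05 were found at 3 of the 80 sites (3.75%), against 3.08% over all named genes. These were position 48873560 of PPP1R15A (74.1% in replicate 1 and 50.9% in replicate 2, unadjusted p = 0.0177), position 204410771 of PPP1R15B (86.96% and 71.8%, unadjusted p = 0.0293) and position 72275295 of DDIT4 (22.6% and 14.3%, unadjusted p = 0.00911), all by Fisher's exact test. The median absolute difference between replicates was 2.83 percentage points over the 80 sites and 4.87 over all named genes. Replicate 2 was higher at 38 sites, replicate 1 at 41, and both were equal at 1.

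With depth left aside, the 7 genes as a group had site levels close to those of the series. The median over the 80 sites was 45.6%, with quartiles at 22.6% and 77.7%, against 44.9%, 25.8% and 74.03% over the 56106 shared sites of all named genes. PPP1R15B gave 32 of the 80 sites, and without it the median was 49.3%. The genes' sites were more deeply read, and levels fell with coverage over the series. Among genes of their own coverage class with at least 5 shared sites, ATF4 lay below the median of mean levels. TRIB3, XBP1, SESN2, PPP1R15A, PPP1R15B and DDIT4 lay above it. At 90% or more were 10 of the 80 sites (12.5%), against 10.7% of all, and under 20% were 15 (18.8%), against 15.2%. The median number of shared sites per gene was 8 against 4. The share of sites in the last 10% of the annotated gene was 23.8% (19 of 80), against 44.1% of the sites of protein-coding genes in the series. PPP1R15B had 0 of 32 there, and without it the share was 39.6% (19 of 48). SESN2 had 9 of these 19 sites, TRIB3 8, and PPP1R15A and DDIT4 1 each. The measure is a part of the genomic span, introns included, so it covers more nucleotides in long genes. It runs to the gene end annotated by RefSeq, and where the transcripts of these cells ended was not tested.

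Processed copies of ATF4 and XBP1 also carried listed sites, which limits how surely reads can be given to the genes. Of 5 named pseudogenes of these genes, 3 had sites. ATF4P3 on chromosome 17 had 3 shared sites with mean levels of 19.5%, 16.6% and 18.5%, the last from 1443 reads in replicate 1 and 1735 in replicate 2. ATF4P4 on chromosome 11 had 1 shared site, at 16.8%. XBP1P1 on chromosome 5 had shared sites at 97.9% and 99.4%, from 66 to 90 reads, beside weak sites listed in 1 replicate each. The shared levels of the ATF4 copies lay within the range of ATF4's own sites, and the stronger site of XBP1P1 lay just above the 98.8% of XBP1's strongest. Whether reads of a parent gene were placed on its copy, or the reverse, was not tested. The other 5 genes have no pseudogene named after them in RefSeq's table.

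The rest of the pathway was taken from a list of 40 genes, of which 36 had a listed site and 29 a shared one. Their median was 4 shared sites per gene and their median mean level 43.6%, against 4 sites and 46.6% over all genes. Each gene's mean level was set against the median of all genes with a shared site in its own coverage class. The mean was higher in 17 of the 29 genes and lower in 12. This median has no minimum of 5 shared sites, unlike the one used above for the 7 genes. The highest and lowest means named below are not matched for depth. Of the 25 with at least 2 shared sites, 23 had unequal levels by the chi-square test, against 89.6% of all such genes in the series. The exceptions were EIF2B2 (chi-square test, adjusted p = 0.0733) and EIF2B5 (chi-square test, adjusted p = 0.166).

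Among the kinases that phosphorylate eIF2, EIF2AK4, the sensor of amino acid shortage known as GCN2, had 9 shared sites at 45.9% ± 1.7, and EIF2AK1, the haem-regulated kinase, had 4 at 32.02% ± 1.7. EIF2AK2 and EIF2AK3, which encode PKR and PERK, had sites in 1 replicate only. Both EIF2AK4 and EIF2AK1 lay below the median of their coverage class, EIF2AK4 narrowly (45.9% against 46.4%). The subunits of eIF2 and of its exchange factor eIF2B had few sites. Of the subunits with shared sites, 2 lay above the median of their coverage class and 4 below. EIF2S3 had 4 sites at the highest mean of that class, 44.4% ± 1.1, and EIF2B1 and EIF2B2 had 4 each, EIF2B2 at the lowest mean, 16.9% ± 1.5. EIF2B3 and EIF2B4 had no listed site in either replicate.

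Of the stress sensors and chaperones of the endoplasmic reticulum, ATF6, a membrane-bound transcription factor, had the highest mean, 68.2% ± 3.6 over 2 sites. HSPA5, the chaperone BiP, had the lowest, 34.4% ± 1.3 over 4 sites, and DNAJC3 also had 4. In this group 3 genes lay above the median of their coverage class, HSPA5 (34.4% against 31.0%) among them, and 1 lay below. ERN1, which encodes the nuclease IRE1 that splices XBP1, had 1 site in replicate 1 and 0 in replicate 2. The transcription factors of the response were uneven. ATF3 had 18 shared sites at 33.3% ± 0.83 and CEBPB 10 at 64.7% ± 1.3, the lowest and highest means of 4 genes with shared sites. CEBPG had 10 at 51.8% ± 1.3 and DDIT3 had 3 at 57.98% ± 3.2. All 4 lay above the median of all genes in their coverage class, which was 31.0% for ATF3 and 46.4% for CEBPB. ATF3 lay below the median of 38.8% for genes of its class with at least 5 shared sites. ATF5 had sites in replicate 2 only, and NUPR1 had none listed.

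ATF4's target genes ranged widely, with 7 above the median of their coverage class and 3 below. SLC7A5, a subunit of a transporter of large neutral amino acids, had 30 shared sites at 49.4% ± 0.43, the most of the 12. CHAC1, an enzyme that degrades glutathione, had the highest mean, 79.1% ± 2.5 over 4 sites, and MTHFD2, an enzyme of mitochondrial folate metabolism, the lowest, 17.3% ± 1.4 at its single shared site. Among the relatives of the 7 genes, TRIB1 had 33 shared sites at 61.8% ± 0.75, against 8 for TRIB3, the lowest mean was that of SESN1 with 39.1% ± 4.6 over 2 sites, and DDIT4L had none listed. Of these relatives, 1 lay above the median of its coverage class and 2 lay below. An unlisted gene may lack methylation or depth.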

How the data were processed

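The data were 2 GLORI libraries of oligo(dT)-purified mRNA, 1 deposited list of sites each. Per the file headers, each line gives a site's total count of A and G reads, its count of A reads, and their ratio as a fraction, within 5e-06 of the division. The files also hold the authors' conversion fraction and coverage signal per gene (its calculation is not stated) and a deposited p-value, which was not used. Per the submitters' processing notes, Trim Galore 0.6.6, STAR, Bowtie, SAMtools and GRCh38 were used; caller and annotation: not given in the sources used here.

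Shared sites are those in both lists, with the 2 levels averaged. Fisher's exact tests (two-sided), chi-square tests and 95% Wilson intervals were computed with SciPy 1.17.1 and pandas 2.3.3, over the whole table with Benjamini-Hochberg adjustment at 0.05, and tested on simulated data. Over all shared sites the mean chi-square of the difference between replicates was 0.931, so the files counted as 1 sample. Sites under a listing limit in 1 file are outside this measure, which may therefore understate the differences. Errors cover counting only. All 1118 shared sites inside RefSeq's start windows (250 bases before to 50 after a start) lay on an A. Gene ends came from RefSeq on GRCh38.p14 (9235 of 9521 names matched). The 7 genes and the 40 pathway genes were chosen with earlier results of these data known. Named from the pathway list were, per class, the gene with most shared sites, the highest and lowest means and unlisted genes, with a few added after their values were seen. The planned motif shares, sequences of internal sites and parts of transcripts were not computed, as no genome sequence or exon annotation was used here. Alternatives were single replicates, coverage of at least 30 or 50 reads, levels of at least 20%, sites in either list, summed reads and other tests.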

Additional observations from a re-analysis of the deposited data

How the results depend on the processing

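The replicates were separated at 0 shared sites of the 7 genes with a coverage of at least 30 or 50 reads, a level of at least 20%, or a chi-square test. Unequal levels within a gene were called in 7 of 7 genes, except that a level of at least 20% left ATF4 with 1 site and 6 of 6 testable genes called. Of adjacent pairs, 58 of 73 were called (79.5%, against 66.5% of all pairs in the series). The count was 52 of 80 without replicate 1 (65%, against 51%) and 59 of 83 without replicate 2 (71.1%, against 49.9%). It was 56 of 69 at 30 reads (81.2%, against 71.8%), 46 of 55 at 50 reads (83.6%, against 76.3%) and 44 of 58 at a level of at least 20% (75.9%, against 64%). Of called pairs that were tested again, 9 of 56 were lost without replicate 1 and 6 of 54 without replicate 2, and 0 under the other 3 settings. The median site level moved with the sites taken: it was 42.4% at a coverage of at least 50 reads, 56.0% at a level of at least 20% and 32.7% for sites listed in either replicate, and with 1 replicate left out it ran from 39.1% to 39.6%. The median of the 7 mean levels was 59.97% at 50 reads and 54.3% at a level of at least 20%. An added setting, chosen after seeing the data, took pairs at least 200 nt apart, and 11 of 14 such pairs were called, against 62.5% of 13748 in the series. Of the mean levels of single genes under the alternatives, 27 stayed within their 95% counting interval and 22 did not. Counts of sites per gene stayed within 1.5 times in 38 cases and fell by more in 4 (ATF4 to 1 at a level of at least 20%, and PPP1R15A to 4, PPP1R15B to 21 and TRIB3 to 5 at 50 reads). Shares within the DRACH motif and counts by part of the transcript were planned and not run. No paired analysis was possible because the study has 1 group. Levels under 10% could not be listed at any depth, and the minimum of 5 reads showing A raises that limit at sites under 50 reads.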
